A study of Mus musculus with 104 samples.

Results

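Primary mouse hepatocytes (PMH, liver cells placed in culture directly from the animal) were transfected with D3 or D2 at 50 nM, and total RNA was sequenced 24 h later. D2 and D3 are N-acetylgalactosamine (GalNAc) conjugated siRNAs against Hao1 with the same guide letters and the same modified position, guide position 5 (g5). D2 carries GNA-C there and D3 carries GNA-isoC, so that the pair differs in the nucleobase at g5. The comparison holds the 4 libraries labelled D3 50 nM and the 4 labelled D2 50 nM, 8 of the 104 libraries of the series. Libraries of both siRNAs at 0.1, 1 and 10 nM (4 each), 8 libraries of mock-transfected cells and 4 libraries of D1 at 50 nM, the parent siRNA with no GNA, are used only to set these values in context. All cells were transfected with a lipid reagent in 384-well plates, and the labels give no strain, sex or age of the animals. No label says that the libraries of a group came from separate animals or cultures, so the p-values measure the spread between these libraries, which may be technical.

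A guide strand finds its full target through pairing over most of its length, but its seed (guide positions 2 to 8) can also pair with short matches in the 3′-UTR of other mRNAs and lower them as a microRNA does. Glycol nucleic acid (GNA) is an acyclic nucleotide analogue that weakens pairing where it is placed, and within the seed it is used to reduce such off-target repression. In isocytosine the amino and carbonyl groups of cytosine are exchanged, which changes the hydrogen bonding of the base in the GNA strand. Hao1 encodes glycolate oxidase, the hepatocyte enzyme that makes glyoxylate, and a 24 h transfection also lets responses that follow from any change in mRNA or from the siRNA itself build up.

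The site is shown because both siRNAs share it and because the matches below repeat its end. In GRCm39 it lies at chr2:134340220-134340242 on the minus strand, inside the coding part of exon 8 (gene Hao1, ENSMUSG00000027261, annotated transcript ENSMUST00000028704.4). The capitals mark the seed and its match, and the base opposite g5 is G.
Hao1 site: cagaatgtgaaagtcATCGACAa
guide: uUGUCGAUgacuuucacauucug

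Hao1 was lowered by both siRNAs, and at 50 nM the D3 libraries held fewer Hao1 counts than the D2 libraries. This difference did not pass the permutation test or an adjusted test. Mock libraries had 33.6 ± 3.85 CPM (SD, n = 8, where CPM is the usual scaling of counts by library size). At 50 nM the level was 2.22, 1.03, 1.94 and 1.77 CPM in the D2 libraries and 1.22, 0.575, 1.01 and 0.391 CPM in the D3 libraries, and the groups overlapped. These are 5 to 11 counts per library with D2 and 2 to 5 with D3. The log2 fold change of D3 against D2 was −1.14 with a 95% interval from −2.12 to −0.15, the exact two-sided permutation test gave p = 0.0571, and p adjusted over the 4 doses was 0.114. The same fit over all genes gave an adjusted p of 0.148, and Hao1 had to be kept in it since its counts were under the filter on low counts. At 10 nM the log2 fold change was −0.72 (interval −1.81 to 0.36, exact permutation p = 0.171, 0.229 adjusted over the doses) and at 1 nM it was −0.012 (−0.77 to 0.75, exact permutation p = 0.857). At 0.1 nM D2 left 13.4, 14.4, 13.5 and 13.8 CPM and D3 7.29, 3.72, 7.18 and 9.17 CPM, without overlap. There the log2 fold change was −1.01 (interval −1.43 to −0.59, exact permutation p = 0.0286, the smallest that 4 against 4 libraries allow, 0.114 adjusted over the doses). Since 1 dose alone at this smallest p cannot pass the adjustment over 4 doses, the adjusted permutation test cannot decide the question at 0.1 nM. The edgeR fit gave Hao1 an unadjusted p of 4.88e-05 at 0.1 nM (0.433 adjusted over all genes) and of 0.0252 at 50 nM.

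**Figure D1:**
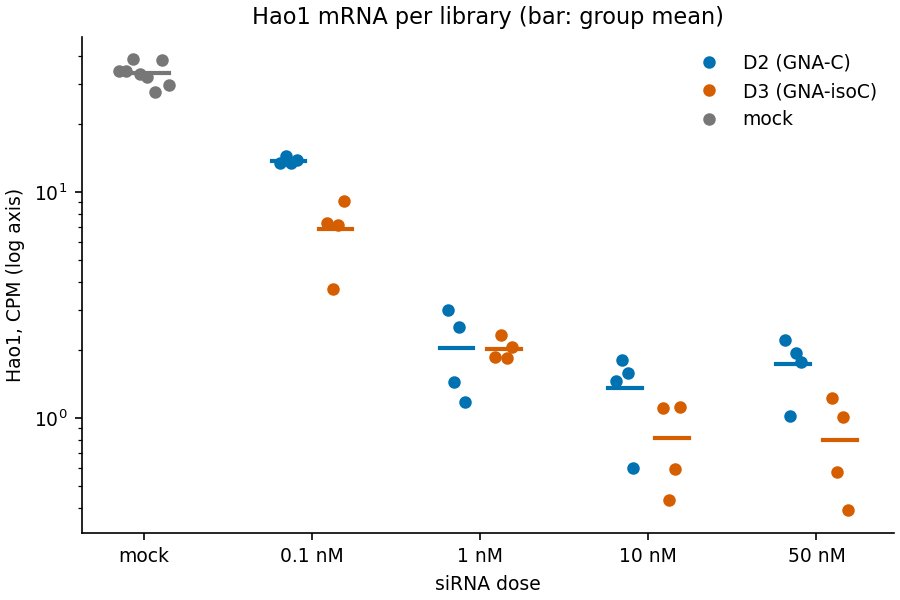
Hao1 level in CPM on a log axis (vertical) in each library (points) of mock, D2 and D3 by dose (horizontal), with the group mean as a bar. Mock had 33.6 CPM on average, and at 50 nM the means were 1.74 CPM with D2 and 0.798 CPM with D3.

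Genes other than Hao1 differed between the siRNAs in both directions, mostly by less than 2-fold. Of 11137 genes tested with edgeR, 1093 (9.81%) had an adjusted p under 0.05. Of these, 429 (3.85%) were higher with D3 and 664 (5.96%) were lower. The median change of the genes called was 1.3-fold among those higher and 1.27-fold among those lower, and 27 higher and 25 lower genes changed by at least 2-fold. The 4 D3 libraries lay wholly above or below the 4 D2 libraries for 345 of the 429 and for 575 of the 664, and for 5.85% (above) and 8.12% (below) of all genes tested. At 10 nM, where other libraries were used, 450 of 11115 genes (4.05%) were called, 185 higher (1.66%) and 265 lower (2.38%), while 5.18% of the genes tested at 50 nM had all D3 libraries above all D2 libraries and 4.99% below, and at 1 and 0.1 nM edgeR called 0 of 11139 and 0 of 11102, with 514 and 358 genes at an unadjusted p under 0.05. DESeq2 was not run at these lower doses.

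The libraries of the comparison held 4024546 to 5204604 gene counts each. ERCC spike-ins made up 0.516% to 0.759% of the counts. Markers of macrophages, endothelial cells, lymphocytes and stellate cells were low, while those of cholangiocytes were not. Most macrophage counts were of Cd68 (50 to 124 per library) and most stellate counts of Reln (33 to 92). The sum over 11 Kupffer cell and macrophage markers was 15.5 to 28 CPM with D2 and 12.2 to 19.6 CPM with D3, with Clec4f, Vsig4, Cd5l, Adgre1, C1qa, C1qb, Marco and Timd4 at 0 in all 8 libraries. The sum over 9 endothelial markers was 0.582 to 1.64 CPM and 1.22 to 2.21 CPM, with Clec4g and Fcgr2b at 0, and over 5 lymphocyte markers 1.36 to 3.08 CPM and 0.977 to 2.93 CPM, with Cd79a, Ms4a1 and Nkg7 at 0. The 9 stellate cell and fibroblast markers summed to 16.7 to 20.1 CPM with D2 and 8.8 to 17.6 CPM with D3, and Reln was called lower. The 6 cholangiocyte markers summed to 164 to 179 CPM with D2 and 200 to 223 CPM with D3, without overlap. Of the 5 cholangiocyte markers tested, Epcam and Sox9 were called higher. Their part in the results was not tested. The 8 hepatocyte markers, at 20400 to 23400 CPM and 21700 to 23200 CPM in sum, held 0 genes called. Among them Cps1 had only 8 to 42 counts per library and Cyp2e1 121 to 188. The cholangiocyte marker Krt19 had 513 to 669. In bulk RNA, fewer cells of a type and less RNA per cell cannot be told apart.

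The 12 largest falls among genes with at least 10 CPM were those of Elovl6, Hkdc1, Msmo1, Cdh17, Fgfbp1, Onecut2, Gpnmb, Igfbp1, Tgfb1, Ahnak2, Sqstm1 and Erfe, with log2 fold changes from −1.36 to −0.98. For these falls and for the rises below, only protein-coding genes called without overlap of the D3 and D2 libraries were eligible. That the groups stood apart was thus fixed by the choice and is no further result. Elovl6, the enzyme that elongates palmitate, stood at 83.7, 87.6, 85.3 and 95.8 CPM in the D2 libraries and 36.2, 36.8, 34.4 and 28.9 CPM in the D3 libraries (log2 fold change −1.36, SE 0.0851, adjusted p = 1.08e-14). The 8 mock libraries spanned 103 to 119 CPM, so that the D2 libraries lay below mock and the D3 libraries farther below. Msmo1, a sterol demethylation enzyme of cholesterol synthesis, stood at 271, 284, 295 and 341 CPM in the D2 libraries and 131, 126, 109 and 115 CPM in the D3 libraries (log2 fold change −1.30, SE 0.0688, adjusted p = 1.08e-14), and the mock libraries spanned 419 to 521 CPM. Both enzymes thus had a level with D2 between that of mock and that of D3.

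Genes outside lipid synthesis made up the rest of the falls. Onecut2, a transcription factor of the developing liver, was at 246, 212, 209.6 and 231 CPM in the D2 libraries and 108, 87.1, 95.3 and 91.4 CPM in the D3 libraries (log2 fold change −1.23, SE 0.0672, adjusted p = 5.27e-16). Cdh17, the liver-intestine cadherin, was at 232, 203, 206 and 177 CPM in the D2 libraries and 91.9, 68.3, 97.0 and 85.3 CPM in the D3 libraries (log2 fold change −1.26, SE 0.103, adjusted p = 2.64e-06). The lowest D2 library was above the highest D3 library by more than the range within either group for Onecut2 and Cdh17. Hkdc1, a hexokinase family member, stood at 16.3, 19.1, 16.5 and 12.6 CPM in the D2 libraries and 6.11, 6.14, 6.84 and 6.84 CPM in the D3 libraries (log2 fold change −1.31, SE 0.174, adjusted p = 1.04e-06). Fgfbp1, a secreted carrier of fibroblast growth factors, was at 152, 116, 146 and 105 CPM in the D2 libraries and 72.1, 46.8, 54.3 and 46.1 CPM in the D3 libraries (log2 fold change −1.25, SE 0.191, adjusted p = 0.00884). Sqstm1, the autophagy receptor p62, was the most abundant of the 12 at 1728, 2250.0, 2106 and 2605 CPM in the D2 libraries and 1003, 1196, 1109.6 and 1029.7 CPM in the D3 libraries (log2 fold change −0.99, SE 0.128, adjusted p = 0.00349). The highest D3 library of Sqstm1 was below the lowest D2 library.

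Secreted regulators were among the falls as well. Igfbp1, a carrier of insulin-like growth factors, stood at 699.8, 627, 845 and 648 CPM in the D2 libraries and 389, 309.5, 275 and 345 CPM in the D3 libraries (log2 fold change −1.09, SE 0.144, adjusted p = 0.00485). Erfe, erythroferrone, a hormone that lowers hepcidin, was at 47.0, 51.7, 52.7 and 43.7 CPM in the D2 libraries and 34.7, 22.8, 21.9 and 20.3 CPM in the D3 libraries (log2 fold change −0.98, SE 0.123, adjusted p = 2.17e-06). Tgfb1, transforming growth factor beta, was at 27.4, 26.7, 27.9 and 25.6 CPM in the D2 libraries and 15.9, 9.78, 13.3 and 12.5 CPM in the D3 libraries (log2 fold change −1.07, SE 0.136, adjusted p = 4.39e-07). The groups stood apart by the choice of genes, although 1 D3 library of Erfe was nearer to D2 than the others. The transmembrane glycoprotein Gpnmb fell by 1.20 on the log2 scale (SE 0.106, adjusted p = 1.77e-10). Ahnak2, a large scaffold protein, fell by 1.0 (SE 0.195, adjusted p = 0.0167), and this call was lost without D3 replicate 1 (adjusted p = 0.0645) and without D3 replicate 2 (0.0618).

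The 12 largest rises were those of Hamp, Bmp4, Esr1, Socs2, Lpl, St14, Cebpd, Sox4, Marcks, Col4a5, Akap7 and Pipox, from 2.02 to 0.76 on the log2 scale. Hamp, which encodes hepcidin, the hormone of iron balance, stood at 4.64, 3.28, 4.65 and 6.18 CPM in the D2 libraries and 16.6, 28.4, 12.7 and 17.8 CPM in the D3 libraries (log2 fold change 2.02, SE 0.240, adjusted p = 3.94e-06). The highest mock library had 7.91 CPM, so that every D3 library and no D2 library was above all mock libraries. Bmp4, a bone morphogenetic protein, was at 8.27, 8.21, 6.40 and 13.03 CPM in the D2 libraries and 14.7, 21.5, 16.3 and 20.5 CPM in the D3 libraries (log2 fold change 1.05, SE 0.179, adjusted p = 8.76e-05). St14, the membrane protease matriptase, was at 7.47, 8.21, 11.1 and 5.52 CPM in the D2 libraries and 12.7, 14.4, 15.5 and 14.5 CPM in the D3 libraries (log2 fold change 0.82, SE 0.179, adjusted p = 0.00159). Levels of all 3 were low.

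More abundant members of the rises were Sox4 and Col4a5. Sox4, a transcription factor of progenitor cells, was at 144, 147, 139.8 and 134 CPM in the D2 libraries and 235, 225, 280.2 and 246 CPM in the D3 libraries (log2 fold change 0.81, SE 0.0619, adjusted p = 4.01e-12). Col4a5, a basement membrane collagen chain, was at 25.0, 30.2, 30.6 and 23.4 CPM in the D2 libraries and 38.4, 49.5, 53.7 and 46.3 CPM in the D3 libraries (log2 fold change 0.79, SE 0.107, adjusted p = 1.34e-06). The lowest D3 library of both genes exceeded the highest D2 library, as the choice required. Socs2, a feedback inhibitor of growth hormone signalling, was at 15.3, 12.3, 15.9 and 14.6 CPM in the D2 libraries and 30.5, 22.4, 28.8 and 27.0 CPM in the D3 libraries (log2 fold change 0.90, SE 0.131, adjusted p = 4.97e-06), and Esr1, the oestrogen receptor, at 10.7, 7.59, 8.92 and 4.86 CPM in the D2 libraries and 16.1, 15.9, 16.9 and 13.5 CPM in the D3 libraries (log2 fold change 0.95, SE 0.180, adjusted p = 2.91e-04). Marcks, an actin-binding protein, rose by 0.80 (SE 0.148), the transcription factor Cebpd by 0.81 (SE 0.169), the kinase anchor Akap7 by 0.77 (SE 0.188) and Pipox, a peroxisomal oxidase, by 0.76 (SE 0.176). Lpl, lipoprotein lipase, rose by 0.82 (SE 0.199, adjusted p = 0.0237). The call of Lpl was lost without D3 replicate 2 (0.0527), D2 replicate 3 (0.0823) or D2 replicate 4 (0.0726).

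**Figure D2:**
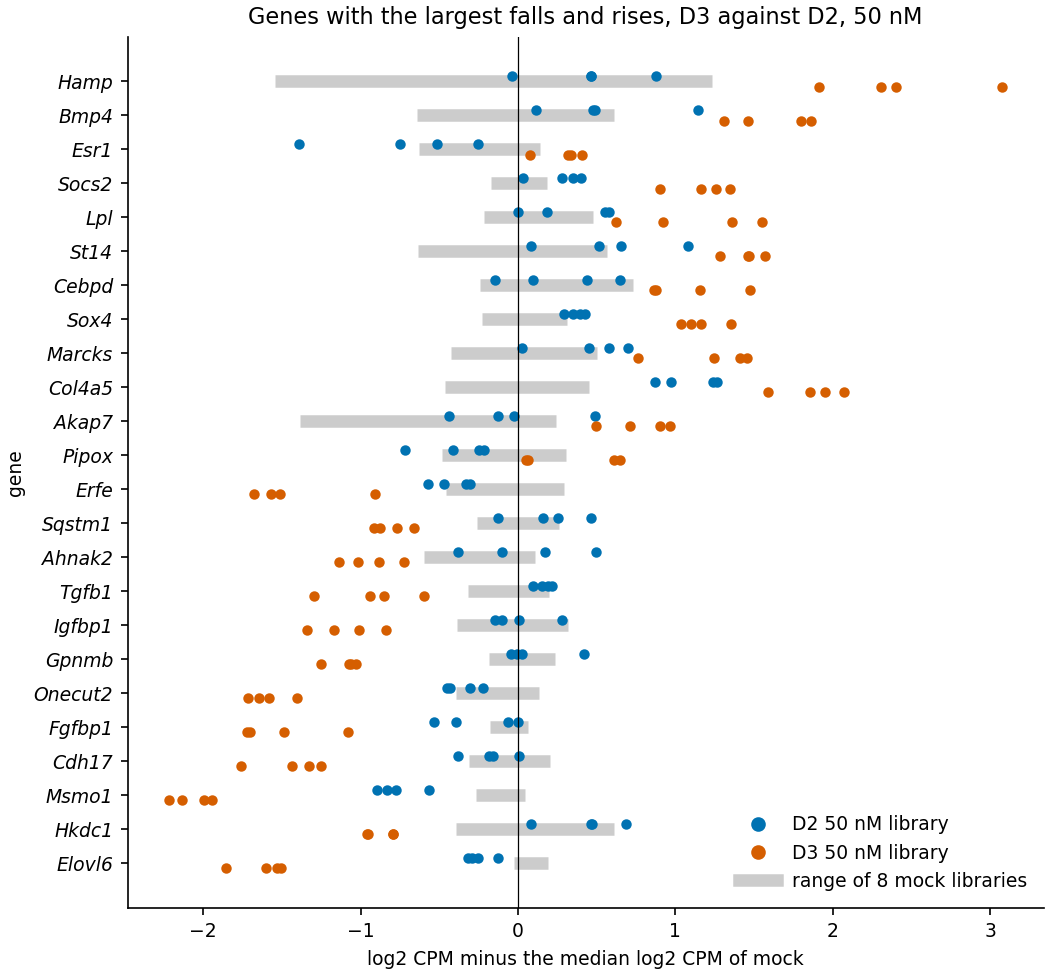
log2 CPM minus the median log2 CPM of mock (horizontal) for the 12 largest falls and 12 largest rises (vertical, genes), with each D2 and D3 library at 50 nM as a point and the range of the 8 mock libraries as a grey bar. For each gene the 4 D3 points lie wholly apart from the 4 D2 points, which was a condition for being chosen.

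Genes of cholesterol synthesis and uptake were lower with D3. Cholesterol is made from acetyl-CoA through mevalonate, squalene and lanosterol, and its genes are turned on together by the sterol-sensing factor SREBP2. Of 24 genes tested, 19 were called lower and 0 higher, where 5.96% and 3.85% of all genes were. The median log2 fold change was −0.41, against 0.00775 over all genes. The steps from acetyl-CoA to squalene held Hmgcs1, the synthase at the start of the mevalonate pathway, at 739.7, 796, 814 and 881 CPM in the D2 libraries and 559, 597, 549 and 553 CPM in the D3 libraries (log2 fold change −0.51, SE 0.0526, adjusted p = 7.51e-09). Its groups did not overlap. Pmvk, a mevalonate pathway kinase, had a log2 fold change of −0.78 (SE 0.133), Mvd −0.49 (SE 0.115), Idi1 −0.44 (SE 0.0922), Fdps −0.65 (SE 0.114) and Fdft1 −0.34 (SE 0.0678). Mvk, in the same stretch, had −0.29 and did not pass the test (adjusted p = 0.0561).

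Past squalene, Sqle had a log2 fold change of −0.40, and Lss, which closes the sterol rings, stood at 193, 208, 211 and 230.1 CPM in the D2 libraries and 142, 130.0, 130.2 and 133 CPM in the D3 libraries (log2 fold change −0.64, SE 0.0608, adjusted p = 8.04e-10). Cyp51, the lanosterol demethylase, was at 304, 358, 337 and 367 CPM in the D2 libraries and 250.5, 237, 218 and 216 CPM in the D3 libraries (log2 fold change −0.56, SE 0.0601, adjusted p = 2.11e-08), and the groups of both genes stood apart. Msmo1, described above, had the largest fall, and Nsdhl (−0.37), Hsd17b7 (−0.30), Sc5d (−0.41) and Dhcr7 (−0.35) also fell. Other genes of this stretch, Ebp (−0.028) and Tm7sf2 (0.018), did not pass the test, and neither did Srebf2 itself (−0.15, adjusted p = 0.136). Insig1, which restrains SREBP2, and Stard4, a sterol carrier, were called lower too, at −0.70 and −0.22. At 10 nM 3 of the list were called lower (Msmo1, Fdps and Lss), where 2.38% of all genes were, and the median was −0.053. Against mock, D2 had 5 genes of the list called higher and 1 lower, where 3.08% and 2.96% of all genes were. D3 had 0 higher and 16 lower against mock, where 13.5% and 14.8% of all genes were.

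Genes of the integrated stress response were also lower with D3. This response slows translation and lets the factor ATF4 turn on genes of amino acid supply. Of 13 genes, 10 were called lower and 1 higher, where 5.96% and 3.85% of all genes were, with a median of −0.57. Atf4 itself had a log2 fold change of −0.33 (SE 0.0534). Mthfd2, of mitochondrial folate metabolism, stood at 65.4, 61.1, 65.7 and 83.9 CPM in the D2 libraries and 40.8, 42.8, 40.4 and 35.4 CPM in the D3 libraries (log2 fold change −0.78, SE 0.0933, adjusted p = 1.55e-07). Trib3, a pseudokinase induced by stress, was at 42.6, 48.0, 49.0 and 49.5 CPM in the D2 libraries and 27.6, 29.7, 25.5 and 26.6 CPM in the D3 libraries (log2 fold change −0.78, SE 0.0962, adjusted p = 2.62e-07). The serine synthesis genes Phgdh (−0.63, SE 0.0722) and Psat1 (−0.56, SE 0.0673) and the asparagine synthetase Asns (−0.57, SE 0.0887) fell as well. In all 5 the 4 D3 libraries lay below the 4 D2 libraries.

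The cystine transporter Slc7a11 had a log2 fold change of −0.96, its partner Slc3a2 −0.26, Chac1, which degrades glutathione, −0.95, and Nupr1 −1.05 at 8.64 CPM with D2. Sesn2 rose (0.36, adjusted p = 0.0234), but this call was lost without D2 replicate 2, 3 or 4 or D3 replicate 2. Atf3 (−0.002) and Ddit4 (−0.052) did not pass the test. At 10 nM 4 of the list were lower (Psat1, Mthfd2, Slc7a11 and Asns), where 2.38% of all genes were, and the median was −0.25. Against mock, the list's median was 0.014 with D2, −0.68 with D3 and 0.041 with D1, all at 50 nM, beside medians over all genes of 0.00365, 0.014 and 0.00879. The D3 libraries lay below all 8 mock libraries in 9 of the 13 genes and the D2 libraries in 1, and over all genes tested these shares were 8.74% with D3 and 1.82% with D2.

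Promoter windows are shown for genes of both lists. A motif was searched on both strands of 250 bases before to 50 bases after each start (RefSeq, GRCm38.p6). The lists were drawn up from knowledge of such genes, so the motif shares do not bear on the difference between the siRNAs. The letters TGATGNAA of the ATF4-CHOP composite element were found in 4.51% of 27025 promoters, in 2.59% of those of genes tested and in 6 of the 13 genes of the stress list, among them Atf3, which did not pass the test. The motif is in capitals.
Asns, chr6:7693217-7693240 minus strand: cagccacaTGATGAAActtcccgc
Chac1, chr2:119351041-119351064 plus strand: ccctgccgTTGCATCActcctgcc
Slc7a11, chr3:50443664-50443687 minus strand: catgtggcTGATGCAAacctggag
Trib3, chr2:152344031-152344054 minus strand: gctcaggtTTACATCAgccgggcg
Nupr1, chr7:126625565-126625588 minus strand: gggccagaTTGCATCAgacagggc
A sterol element, TCACNCCAC, was in 1.44% of all promoters and in 1 of the 16 sterol genes with a promoter in the table, Hmgcs1 (chr13:119690206-119690230 plus strand): tcaccgtcTCACCCCACttcccagg. A match describes these letters, not binding.

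**Figure D3:**
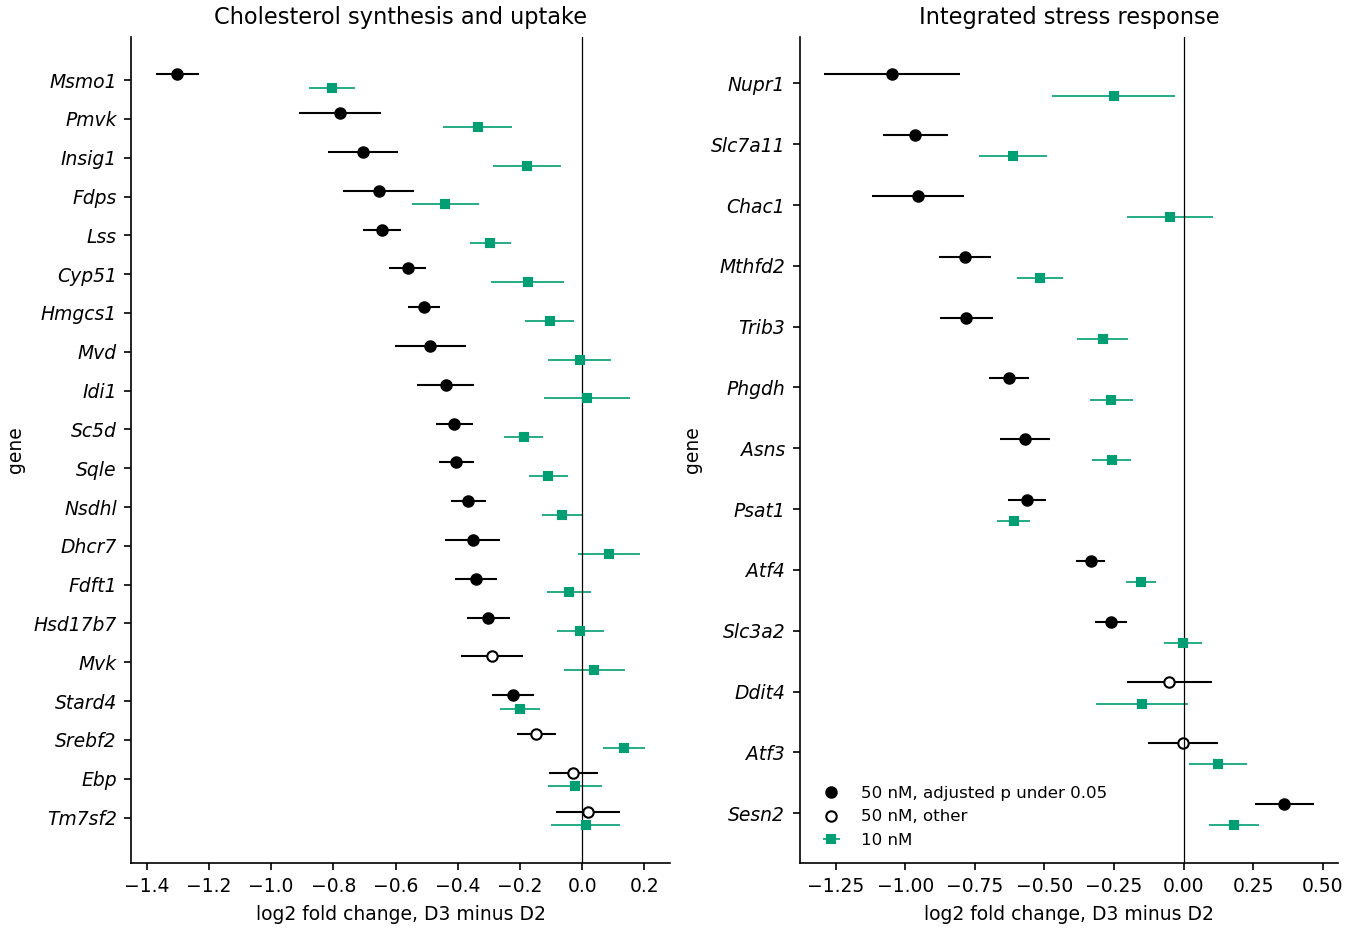
log2 fold change of D3 against D2 (horizontal) for members (vertical) of the cholesterol list (left) and the stress list (right), at 50 nM as circles, filled where the adjusted p is under 0.05, and at 10 nM as squares, with bars of 1 standard error. In the left panel 16 of the 20 genes shown have filled circles, all below 0, and in the right panel 10 of 13 have filled circles below 0.

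Other metabolic lists moved less, and their counts are to be read against 5.96% of all genes lower and 3.85% higher. Of 15 genes of fatty acid synthesis, 5 fell and 0 rose (median −0.14), namely Elovl6, the desaturase Fads1 (log2 fold change −0.53, SE 0.0563, adjusted p = 1.18e-08), Acly, which makes cytosolic acetyl-CoA (log2 fold change −0.36, SE 0.0520, adjusted p = 3.89e-06), Acacb and Me1. Without D2 replicate 3, 3 were called. In the list of NRF2 targets, which answer oxidative stress, 4 of 10 fell (median −0.14), namely Ugdh (log2 fold change −0.50, SE 0.0595, adjusted p = 2.30e-07), Gclc, the first enzyme of glutathione synthesis (log2 fold change −0.49, SE 0.0576, adjusted p = 2.41e-07), Hmox1, haem oxygenase (log2 fold change −0.83, SE 0.146, adjusted p = 0.0138), and Txnrd1 (−0.17). Without D2 replicate 4, 2 were called. Of 6 metal handling genes, Mt1 (log2 fold change 0.44, SE 0.0626, adjusted p = 4.84e-06) and Mt2 (log2 fold change 0.43, SE 0.0654, adjusted p = 2.12e-05), the metallothioneins, rose, and Tfrc, the transferrin receptor (−0.34), and Fth1, ferritin heavy chain (log2 fold change −0.38, SE 0.0531, adjusted p = 2.10e-06), fell. Tfrc was not called in the fit over all libraries (adjusted p = 0.241).

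Cell growth and vesicle genes were lower in part, beside 5.96% of all genes lower and 3.85% higher. In the cell cycle list 7 of 23 fell and 1 rose (median −0.27), among them Ccnb2, a mitotic cyclin, at 11.5, 9.64, 11.6 and 11.5 CPM in the D2 libraries and 5.38, 4.03, 6.24 and 5.86 CPM in the D3 libraries (log2 fold change −1.03, SE 0.195, adjusted p = 2.92e-04). Mcm4, of the replication helicase, had −0.43 and Rrm2, of nucleotide synthesis, −0.45. Ccnd1, the cyclin of growth factor response, rose, at 432, 498, 455 and 462 CPM in the D2 libraries and 628, 710.3, 763 and 717 CPM in the D3 libraries (log2 fold change 0.62, SE 0.0549, adjusted p = 1.97e-10). The list had 11 genes called lower without D2 replicate 3 and 3 in the fit over all libraries of the series, where Rrm2 lost its call (adjusted p = 0.0558). Against mock, the list's median was −0.38 with D2, −0.77 with D3 and −1.21 with D1, all at 50 nM. D2 had 15 of the 23 genes called lower than mock and 0 higher, where 2.96% and 3.08% of all genes were. D3 had 22 lower and 1 higher, where 14.8% and 13.5% of all genes were. In the list of galactosamine receptor, endocytosis and lysosome genes 7 of 18 fell and 0 rose (median −0.15), with the lysosomal cholesterol exporter Npc1 at −0.46 (SE 0.0563), Lamp2 at −0.29, clathrin heavy chain Cltc at −0.24 and Dnm2 at −0.23.

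Liver export lists were mixed. Over all genes 5.96% were lower and 3.85% higher, so that 1 call in a list of this size is near that share. In complement and acute phase 4 of 26 rose (Hamp, Lcn2, Saa2 and Masp1, the last at log2 fold change 0.70, SE 0.123, adjusted p = 1.07e-04) and 2 fell (median 0.072), with 2 called higher without D2 replicate 2 or in the fit over all libraries, and 1 called lower without D2 replicate 1 or 3 or D3 replicate 2, 3 or 4. Plasma carriers and apolipoproteins had 2 of 16 higher, Ttr (0.23) and Igf1 (0.21), and Igfbp1 lower (median 0.081). In the fit over all libraries neither Ttr (adjusted p = 0.635) nor Igf1 (0.0723) was called. That fit also holds the siRNAs D4, D5 and D6, which target Ttr, so it says little about Ttr here. The log2 fold change of Ttr in it was 0.23 as well. Coagulation and fibrinolysis had F7 higher and F11 lower among 19 genes (median 0.049), and F7 lost its call without D2 replicate 2. Without D2 replicate 3, 2 were called higher, and without D2 replicate 1 or 4, 2 were called lower. Bile acid synthesis and transport had 1 of 11 lower, the canalicular pump Abcc2, at 493, 542, 582 and 519 CPM in the D2 libraries and 391, 400.0, 429 and 374 CPM in the D3 libraries (log2 fold change −0.42, SE 0.0544, adjusted p = 7.91e-07), whose groups did not overlap (median −0.051). Urea cycle and amino acid breakdown had 3 of 19 lower (median 0.055), the xenobiotic P450 list 3 of 18 (median −0.18), NF-kappaB 2 of 10 with Ccl2 (−0.35) and Icam1 (−0.36), and the unfolded protein response 2 of 15 with Herpud1 (−0.37) and Ddit3 (−0.42). Icam1 and Ddit3 lost their calls when 1 library was left out (D3 replicate 2 or D2 replicate 3 for Icam1, D2 replicate 2 for Ddit3).

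The remaining lists held few calls, to be read against the shares of 3.85% higher and 5.96% lower over all genes. Fatty acid oxidation had 2 higher and 1 lower of 18 (median 0.031), glycolysis and gluconeogenesis 2 higher of 19 (median −0.004), p53 targets 2 higher, among them Btg2 at 0.74 (SE 0.0642), and 1 lower of 18 (median −0.030), and the liver transcription factors 1 higher (Esr1) and 1 lower of 16 (median 0.012). The cytoskeleton and dedifferentiation list had 2 higher and 4 lower of 20 (median −0.082), with Actg1 at log2 fold change −0.52, SE 0.0604, adjusted p = 7.06e-08. The small RNA machinery had 3 lower of 23 (median −0.074), miR-122 targets from the literature 2 higher and 2 lower of 17 (median 0.13), the clock 1 lower of 13 (median 0.007), immediate early genes 1 higher of 9 (Jun, 0.41; median 0.16), pericentral genes 1 higher and 2 lower of 8 (median 0.13), periportal genes 1 higher of 5 (median −0.011), heat shock 0 of 8 (median 0.045) and glyoxylate metabolism 0 of 5 (median 0.24). Cytosolic ribosomal proteins had 3 lower of 76, with Rpl5 at log2 fold change −0.57, SE 0.0566, adjusted p = 2.84e-09 (median 0.021), and the nuclear respiratory chain 2 higher and 1 lower of 91 (median 0.065). Most of these small counts moved when 1 library was left out, so that little can be read from them.

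The small RNA machinery had 1 gene called lower without D3 replicate 1 or D2 replicate 3. Pericentral genes had 0 lower without any 1 of D2 replicates 2, 3 and 4 and D3 replicates 2, 3 and 4, and 2 higher without D2 replicate 2 or 3. The cytoskeleton list had 0 higher without D2 replicate 3 and 1 without any other library but D2 replicate 4. The nuclear respiratory chain had 0 higher without D3 replicate 1, 3 or 4 and 1 without D2 replicate 2 or 3, and 0 lower without D3 replicate 2 or D2 replicate 2 or 4. The liver transcription factors had 0 lower without D3 replicate 1, 3 or 4 or D2 replicate 2 or 3, and 2 without D2 replicate 4. The miR-122 targets had 1 higher without D3 replicate 2, 3 or 4 or D2 replicate 2 or 3. Fatty acid oxidation had 1 higher without D2 replicate 1 or D3 replicate 4 and 2 lower without D2 replicate 3. Glycolysis had 1 higher without D2 replicate 1 or 4 or D3 replicate 3 or 4, and immediate early genes had 2 higher without D3 replicate 1 or D2 replicate 2 or 4.

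Interferon response genes, which mark sensing of foreign RNA, gave 0 calls among 23 tested, although all 23 had a log2 fold change below 0 (median −0.24). Their summed level was 2110.4, 1489, 2029 and 1721 CPM with D2 and 1072, 1424, 1378 and 2101 CPM with D3, so that the groups overlapped and the list cannot be told apart from the spread. Of the 7 mitochondrially encoded mRNAs tested, 3 rose (mt-Cytb, mt-Nd4 and mt-Nd5, at 0.16 to 0.24, list median 0.16), where 3.85% of all genes did. The mitochondrial share of all counts was 3.04% to 3.49% with D2 and 3.65% to 3.82% with D3, and at 10 nM 3.31% to 3.51% and 3.19% to 3.62%, which overlapped. The count of these mRNAs called depended on the fit: it was 1 without D3 replicate 2, D3 replicate 3 or D2 replicate 4, 5 without D2 replicate 1 or with DESeq2, 7 with the replicate number as a block and 0 in the fit over all libraries of the series.

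**Figure D4:**
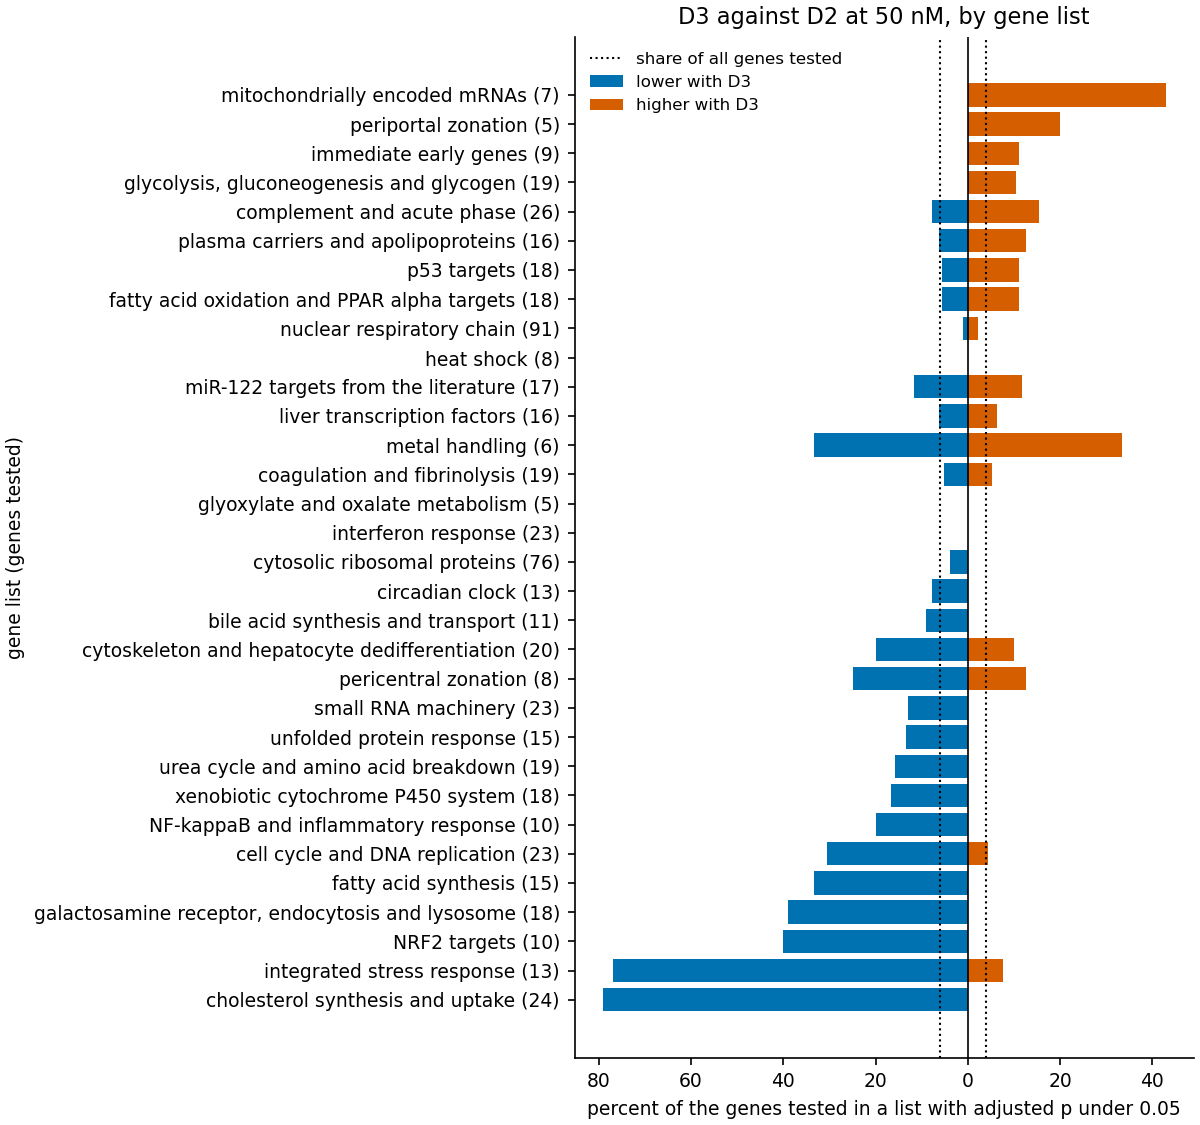
Share of the genes tested in each list that were called at 50 nM (horizontal, percent; left lower with D3, right higher), for 32 gene lists (vertical, with the number tested). The dotted lines mark the shares over all genes, 5.96% lower and 3.85% higher, and the cholesterol and stress lists have the longest bars to the left.

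Genes with a seed match in the 3′-UTR were compared by class because g5 lies inside the seed. A mer8 match pairs with guide positions 2 to 8 and an A opposite position 1, a mer7m8 match with positions 2 to 8 alone and a mer7A1 match with positions 2 to 7 and that A. Among the genes with a match that were called lower, those with the largest falls are shown with the site in capitals.
Elovl6: tcatcacgaaaaataATCGACAa
Lss: tgcccagctgccaccATCGACAc
Abcc4: gtgaaatcctttcacATCGACAc
Lcp1: aggagtaagccagaaATCGACAc
Chmp1b also belongs to these. Elovl6 (ENSMUSG00000041220) lies at chr3:129326004-129432144 on the plus strand in GRCm39, and its mer8 match begins at base 476 of the 5432-base 3′-UTR of ENSMUST00000197070.6. Of 41 mer8 genes tested, 5 were lower and 3 higher (12.2% and 7.32%), and of 156 mer7m8 genes 15 were lower and 1 higher (9.62% and 0.641%). Of 105 mer7A1 genes 9 were lower and 8 higher (8.57% and 7.62%). The higher mer8 genes were Chst15 (log2 fold change 1.40), Sox5 (0.88) and Kat2a (0.27), and the higher mer7m8 gene was Iqsec2 (0.32). Among all 10597 genes with a 3′-UTR tested, 6.15% were lower and 3.97% higher. The medians were −0.0216, −0.0219 and 0.0294, against 0.00724 over all genes with a 3′-UTR. The mer8 median of D3 against D2 varied with the libraries kept. It was −0.0557 without D2 replicate 1, −0.0376 without D2 replicate 2 and −0.011 without D2 replicate 4. Without D3 replicates 1, 2 and 3 it was −0.0558, −0.0486 and −0.0636. Leaving out D3 replicate 1 or D2 replicate 2 moved the mer7m8 median to −0.0371 and −0.0406, and leaving out D2 replicate 4 moved the mer7A1 median to 0.0135.

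The genes shown were chosen for their match, and of them Elovl6 alone is among the 12 largest falls. Abcc4, a drug and bile salt exporter, was at 226, 256, 281 and 245 CPM in the D2 libraries and 147, 169, 189 and 151 CPM in the D3 libraries (log2 fold change −0.61, SE 0.0709, adjusted p = 8.18e-07). Lcp1, an actin-bundling protein, was at 67.2, 62.8, 61.6 and 66.5 CPM in the D2 libraries and 41.1, 47.6, 45.5 and 39.1 CPM in the D3 libraries (log2 fold change −0.57, SE 0.0837, adjusted p = 6.59e-06). Their groups did not overlap. Chmp1b, a member of the ESCRT membrane remodelling machinery, fell by 0.58 (SE 0.0847). Against mock at 50 nM, Elovl6 had −0.92 with D1, −0.28 with D2 and −1.65 with D3. Chmp1b had −1.47, −0.11 and −0.69, and Lss had −0.26, 0.024 and −0.62. The order of the siRNAs differed among these genes. Elovl6, Lss and Nsdhl are members of the lipid lists as well, and Actg1 (mer7m8) and Tubb6 (mer8) of the cytoskeleton list. Actg1 and Tubb6 had log2 fold changes of −0.52 and −0.49 for D3 against D2. Against mock, Actg1 had −2.15 with D1, 0.0042 with D2 and −0.52 with D3, and Tubb6 had −0.74, −0.48 and −0.96. Matches with another base at the letter opposite g5 were also counted, and those with A in place of G (1083 genes) had 8.22% lower and 3.97% higher, those with C (1520 genes) 6.38% and 3.55% and those with T (1234 genes) 6.32% and 3.81%.

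The genes called were compared with the same contrast at 10 nM, in other libraries. Of 1090 genes called at 50 nM and tested at 10 nM, 1007 (92.4%) had the same sign, against 66.8% of all 11003 genes tested at both doses. Of these 1090, 280 were also called at 10 nM and 0 were called in the opposite direction. The 280 are 25.6% of the 1093 called at 50 nM and 62.2% of the 450 called at 10 nM. The median log2 fold change of the genes called lower was −0.344 at 50 nM and −0.2 at 10 nM, and of those called higher 0.381 and 0.222. Since the genes were chosen by their values at 50 nM, smaller values at 10 nM can follow from that choice alone. Elovl6 had −1.11 at 10 nM (adjusted p = 2.20e-09), Onecut2 −0.94 (1.69e-05), Cdh17 −1.16 (1.50e-05), Msmo1 −0.80 (5.85e-07) and Hamp 1.36 (0.00123). The 12 falls all had the same sign at 10 nM and 8 of them were called, and the 12 rises had the same sign with 7 called. Igfbp1, Sqstm1, Tgfb1, Hkdc1 and Ahnak2 had −0.61, −0.39, −0.28, −1.06 and −0.18, of which Hkdc1 alone was called.

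The change between 10 and 50 nM was tested as an interaction. It gave 0 of 11439 genes at an adjusted p under 0.05 with edgeR, 735 at an unadjusted p under 0.05, and 0 with DESeq2. The smaller number of calls at 10 nM is thus not shown to be a smaller effect. The count at 10 nM fell to 252 without D2 replicate 1, 262 without D2 replicate 3, 264 without D2 replicate 4 and 298 without D3 replicate 2. One D3 10 nM library, replicate 3, had 1.20% ERCC counts and 15567 genes with a count, and without it 542 genes were called.

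**Figure D5:**
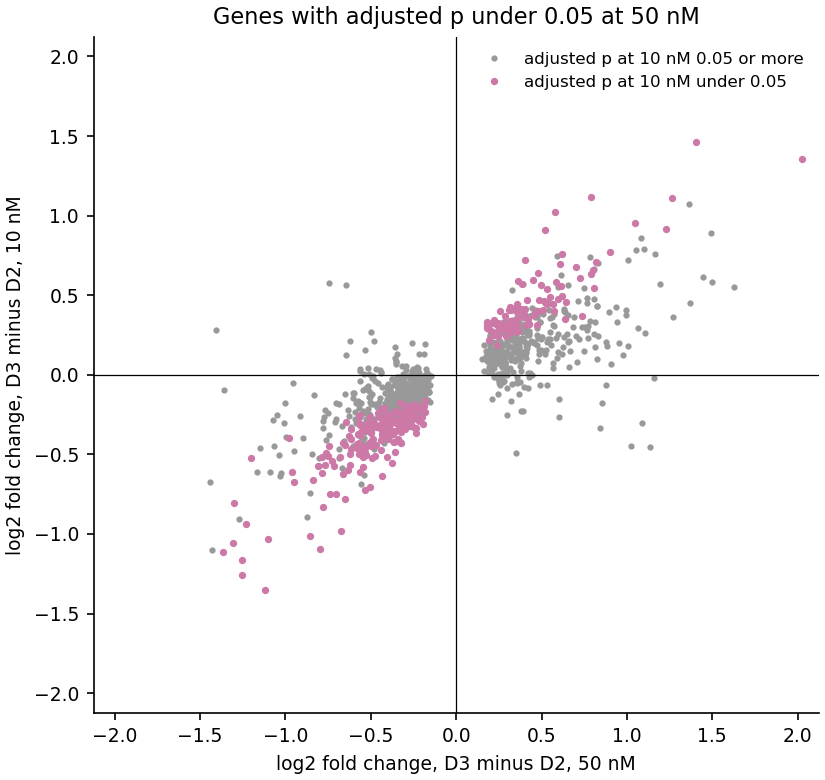
log2 fold change of D3 against D2 at 50 nM (horizontal) and 10 nM (vertical) for genes called at 50 nM, coloured by the call at 10 nM. Of the 1090 points, 1007 lie in the lower left or upper right quadrant.

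The levels in mock are set beside those of the genes called. Of the 429 genes higher with D3, the 4 D3 libraries lay above all 8 mock libraries in 252 and the D2 libraries in 31, against 6.46% and 1.96% of all genes tested. Of the 664 genes lower with D3, D3 lay below all mock libraries in 428 and D2 in 57, against 8.74% and 1.82% of all genes. The log2 fold change against mock was the larger in size with D3 for 379 of the 421 higher genes tested against mock and for 578 of the 664 lower genes. The medians against mock were 0.0551 with D2, 0.448 with D3 and 0.118 with D1 for the higher genes, and −0.0184, −0.361 and −0.064 for the lower genes. These comparisons share the mock libraries and use the same D2 and D3 libraries that chose the genes.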

How the data were processed

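RNA from PMH was sequenced per the labels with the TruSeq Stranded Total RNA kit. The authors filtered reads with fastq-mcf, mapped them with STAR on GRCm39, and deposited whole-number counts per gene of uniquely aligned reads, from featureCounts 2.0.2 per the submitters' processing notes, for 2 sequencing runs per library. STAR's version and the annotation are not given in the sources used here. The deposited DESeq2 tables (1.32.0) hold the authors' fold changes and p-values for each siRNA and dose against mock and were not used.

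Runs were summed (chi-square per degree of freedom between runs close to 1), and 92 ERCC rows were dropped. Of 55416 genes, 54749 matched the GENCODE annotation of GRCm39. The test was edgeR's quasi-likelihood test (version 4.0.16, R 4.3.3, TMM, filterByExpr, glmQLFit, glmQLFTest, Benjamini-Hochberg) on the libraries of the 2 groups compared. Hao1 was kept past the filter, a choice made after seeing the data. Levels are CPM with TMM factors over the libraries of mock, D1, D2 and D3. Hao1 was also compared by exact permutation of libraries. Python 3.11.15, numpy 2.4.6 and pandas 2.3.3 were used for seed matches and motifs. The edgeR step was tested on simulated counts with 200 genes changed. On the log2 scale it recovered 34.2% of changes of −0.3, 53.8% of −0.5, 65% of 0.5 and 92.3% of −1 and of 1. It made 11 false calls. A gene not called may thus still differ by a small amount.

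The members, gene lists and alternatives were chosen with earlier results of these data known. Genes named are Hao1, the 12 largest rises and falls among genes called with a mean of at least 10 CPM, up to 4 genes per list with the smallest adjusted p, and up to 5 genes with a mer8 or mer7m8 match and the largest fall. Other members are named because they belong to a list or a seed-match class, or were seen in its values. The values of 4 genes of the cholesterol list are not reported here, though its counts hold them. Alternatives were a block for the replicate number, each library left out in turn, each run alone, DESeq2 1.42.0 with betaPrior, a fit over every library of the series, RLE in place of TMM, and no filter beyond 1 count. With 4024546 to 5204604 counts in each, 1 CPM stands for 4 to 5 counts, so that the level of silenced Hao1 is imprecise.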

Additional observations from a re-analysis of the deposited data

Results flagged for a closer look

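Among 216 groups of 4 libraries examined, 12 held 1 library far from the other 3 for the range of the 4, against about 1 in 20 by chance. Such a gap can be small in CPM, as for Iqgap1 below, whose other 3 D2 libraries had 506.4 to 507.4 CPM. With D2 these were Actg1 at 217.1 CPM in replicate 4, Ccnb2 at 9.643 in replicate 2, Fads1 at 323.6 in replicate 3, Gpnmb at 67.13 in replicate 4, Herpud1 at 157.8 in replicate 2, Iqgap1 at 494.4 in replicate 3, Mcm4 at 73.24 in replicate 1 and Mt1 at 175.9 in replicate 1. With D3 they were Ago3 at 20.52 CPM in replicate 2, Cyp2c29 at 118.7 in replicate 3, Ddit3 at 19.79 in replicate 1 and Mt2 at 221.6 in replicate 1. The other 3 libraries of Gpnmb with D2 had 48.6 to 51.1 CPM, and its groups did not overlap with or without replicate 4.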

How the results depend on the processing

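The count of genes called at 50 nM was 777 to 985 when 1 library was left out, 1391 with the replicate number as a block, 741 with DESeq2, and 706 and 705 with sequencing run 1 or run 2 alone. At 10 nM it was 252 to 542 with 1 library left out, 547 with the block and 277 with run 2 alone. Deviations of same-numbered libraries from their group means had correlations of 0.0248 to 0.0733 at 50 nM and −0.086 to 0.096 at 10 nM. For libraries with different numbers they were −0.122 to 0.0983 and −0.139 to 0.0972. Values this small neither show nor exclude a pairing by number. The Hao1 log2 fold change at 50 nM was −1.38 to −0.91 with 1 library left out and −1.1 with the block. It was −0.194 with DESeq2, whose prior shrinks it, and −1.95 and −0.342 in runs 1 and 2. DESeq2 gave no adjusted p for Hao1, and in the others Hao1 did not pass the adjusted test. The interaction gave 1 call with the block, 0 to 1 with 1 library left out and 31 with all genes of at least 1 count. Of 104 named genes, 65 kept their side of the threshold under all 15 alternatives, and none changed sign. DESeq2 lost 11 of them, the fit with all libraries 19 and the block 1, Igfbp1 (adjusted p = 0.0539). Of 42 counts of list members called in 1 direction, 13 stayed within 1.5 times under all 15 alternatives, among them the falls in the cholesterol and stress lists. RLE moved 0 of the 42, DESeq2 and the block 10 each, the fit with all libraries and run 1 alone 13 each, run 2 alone 11, the wider filter 5, and leaving out 1 library 5 to 14. The cause of these changes was not tested. Counts per library limit low genes.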
